A study of Mus musculus with 123 samples.

Results

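Lpar3, Lpar5, Agtr1a, Prkcq and Plxnc1 were followed as markers of non-peptidergic (NP) nociceptors in mouse dorsal root ganglia (DRG) after sciatic nerve transection (SNT). They were taken by symbol, and all 5 were found among the 24134 genes of the deposited tables. The mice were 2 months old, the right sciatic nerve was cut, and the ganglia of the uncut side of the same mice gave the control neurons. Day-3 neurons and pooled neurons came from the F1 cross of CAST/Eij males with C57BL/6 females and were read in 50 bp. Day-7 neurons came from C57BL/6 mice of both sexes and were read in 75 bp. The labels give no sex for the F1 mice, which the study's methods call female. Strain, sex, read length and day therefore cannot be told apart. Neurons of L5 ganglia at day 3 and of L3-L5 ganglia at day 7 were picked by hand in similar numbers of small, medium and large cells, 22 control and 48 SNT neurons at day 3 and 14 and 33 at day 7. After the authors removed outliers, 18 and 41 day-3 neurons remained, and all day-7 neurons were kept. For each side a lysate of dissociated neurons of all sizes was also split into 3 pooled libraries at day 3. A protocol label of the day-7 neurons names both days, and these were placed by their titles. Kept neurons held 261351 to 1849130 counts and pooled libraries 563462 to 2003817, with more on the SNT side at day 3 and in the pools.

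NP nociceptors are small unmyelinated C-fibre neurons that express the purinergic channel P2rx3 and the receptor tyrosine kinase Ret, and many of them carry the receptor Mrgprd and end in the outer skin. Among the genes followed here, Lpar3 and Lpar5 encode G protein-coupled receptors for lysophosphatidic acid (LPA), a signalling lipid. Agtr1a encodes the type 1 receptor for angiotensin II. Prkcq encodes protein kinase C theta, a kinase activated by diacylglycerol, and Plxnc1 encodes a plexin, the receptor for semaphorin 7A. Atf3 is a transcription factor that is switched on in sensory neurons whose axon has been cut.

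On the GRCm38 assembly Lpar3 spans 146220963 to 146286186 of chromosome 3 and Lpar5 spans 125067920 to 125082472 of chromosome 6, both on the forward strand. Agtr1a lies at 30336441 to 30382867 of chromosome 13 and Prkcq at 11172108 to 11301222 of chromosome 2, again on the forward strand, and Plxnc1 lies at 94790866 to 94944835 of chromosome 10 on the reverse strand. The longest GENCODE M21 transcript with a RefSeq mRNA has 3 exons for Lpar3, 2 for Lpar5, 3 for Agtr1a, 18 for Prkcq and 31 for Plxnc1. No protein-coding gene overlaps any of them. A transcript model of unknown type lies on the other strand of Prkcq, and the libraries do not keep strand. The deposited values were made on mm9, so these positions serve as annotation only.

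Because the genes were followed together, the bases just before their starts are shown for the 3 genes whose RefSeq promoter window reaches beyond the transcribed span, 5′ to 3′ on the strand of the gene, with matches to TGTGGT, the core letters bound by Runx factors, in capitals. The first is chr3:146220711-146220960, the second is chr6:125067670-125067843 and the last is chr10:94945016-94945095, all from RefSeq on GRCm38.p6.
Lpar3: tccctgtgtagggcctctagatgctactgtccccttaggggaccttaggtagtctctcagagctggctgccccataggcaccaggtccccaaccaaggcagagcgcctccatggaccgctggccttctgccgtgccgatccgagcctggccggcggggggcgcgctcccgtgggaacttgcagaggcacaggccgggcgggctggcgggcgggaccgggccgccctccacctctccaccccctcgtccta
Lpar5: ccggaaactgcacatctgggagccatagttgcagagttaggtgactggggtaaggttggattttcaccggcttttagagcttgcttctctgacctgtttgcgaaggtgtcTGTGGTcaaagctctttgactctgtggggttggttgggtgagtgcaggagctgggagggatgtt
Plxnc1: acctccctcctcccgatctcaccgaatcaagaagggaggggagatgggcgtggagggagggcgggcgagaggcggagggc

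The stretch before Lpar3 was 69.6% G or C with 17 CG pairs, while the stretch before Lpar5 was 52.3% G or C with 3 CG pairs. In the first 250 bases of each promoter window, TGTGGT on either strand was found 1 time in the first Lpar5 window and 2 times in its second window, and not in the windows of Lpar3, Prkcq and Plxnc1. Of these bases, 174 in the first Lpar5 window and 80 in the Plxnc1 window lay before the transcribed span. The Prkcq window and the second Lpar5 window began within the transcribed span. It occurred in 14% of all 32851 windows. Neither TGANTCA, the AP-1 letters, nor TGACGTCA, the CRE letters bound by ATF family dimers, was found in any of these windows, against 6.75% and 1.55% of all windows. Agtr1a had no entry.

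In pooled neurons at day 3, Lpar3 fell to 0.29% and Lpar5 to 0.42% of the control level on the SNT side, Prkcq fell to 7.91% of its control level and Agtr1a to 22%, while Plxnc1 kept 56.2%. The call required a log2 change of more than 1 in size, with p under 0.05 in edgeR's quasi-likelihood test after Benjamini-Hochberg adjustment. All 5 genes passed the filter on low values and 4 of 5 were called, each of them lower, against 16% of the 13509 genes tested, of which 961 were lower and 1196 higher. Lpar3 and Lpar5 passed the filter only through the control side. The study placed all 5 in gene modules built on the single neurons of this series, so the count of 4 called genes is not independent evidence. Of all calls 55.4% were higher after SNT, and 43.7% when scaled by library size alone, where the median over all tested genes was -0.14 rather than 0.02. The 4 calls stood under either scaling. The 3 libraries of a side are parts of 1 lysate, so the test sets 2 pools of neurons against each other over technical spread. In pools, fewer neurons of a type and less RNA per neuron cannot be told apart. The side of each pool was read from the column names. The identifiers in the table header pair the sides the other way, under which every pooled difference would change sign. Atf3 was at 7.79, 20.4 and 10.1 CPM (counts per 1000000 counted, TMM-scaled) in the columns named for the control side and at 1693, 1455 and 1505 CPM in those named for the SNT side.

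Lpar3 was at 257, 253 and 286 CPM in the 3 control libraries and at 1.25, 0 and 1.07 CPM in the 3 SNT libraries. The 3 SNT libraries held 4.01 Lpar3 counts in all, against 591 in the controls, a ratio per count sequenced of 335 in favour of the control side (95% interval for counting error alone 130 to 1233). The fitted log2 change was -8.07 (SE 0.33, edgeR adjusted p = 4.4e-22), a size that depends on the prior count.

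Lpar5 was at 66.2, 86.1 and 65.6 CPM in the control libraries. On the SNT side 1 library held 1 count, or 0.92 CPM, and the other two held 0. The control side held 166 counts, and the ratio was 376 with a counting interval of 66.6 to 14944. The fitted log2 change was -7.79 (SE 0.56, edgeR adjusted p = 2.2e-14).

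Prkcq was at 227, 255 and 244 CPM in control libraries and at 11.3, 22.2 and 24 CPM in SNT libraries. It fell by 3.66 on the log2 scale (SE 0.22, edgeR adjusted p = 1.4e-16), and 87 counts of it were left in the 3 SNT libraries. The kinase was thus counted in each SNT library.

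Agtr1a was the lowest of the 5 genes in CPM on the control side, at 22.1, 29.5 and 31.9 CPM. In SNT libraries it was at 5.00, 10.2 and 3.2 CPM. The receptor fell by 2.26 on the log2 scale (SE 0.46, edgeR adjusted p = 2.3e-04).

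Plxnc1 was at 326, 266 and 246 CPM in control libraries and at 191, 162 and 119 CPM in SNT libraries. The log2 change was -0.84 (SE 0.17, edgeR adjusted p = 1.7e-04), which passed the limit on p and not the limit on size.

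**Figure D1:**
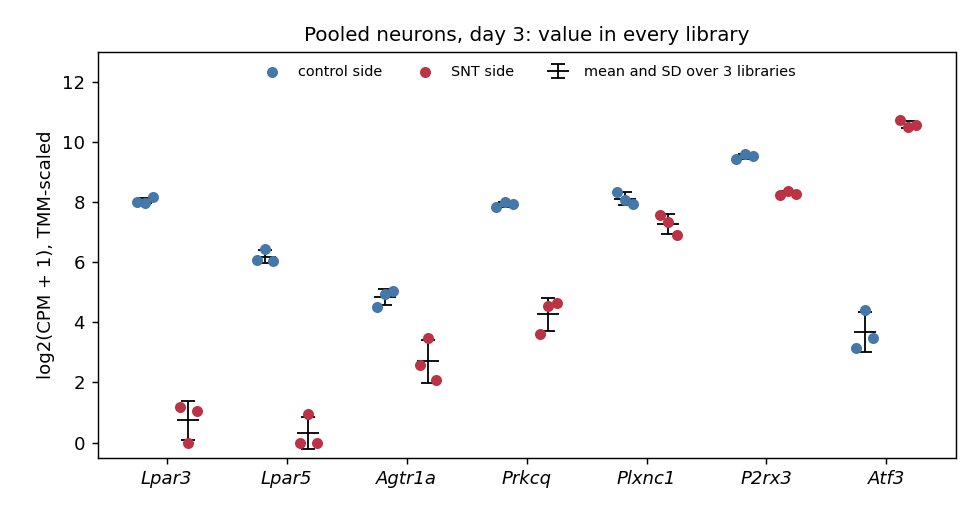
Each point is 1 of 3 pooled libraries per side at day 3, as log2(CPM + 1) after TMM scaling, with the mean and SD in black, for the 5 genes and for P2rx3 and Atf3. Lpar3 and Lpar5 lie near 0 on the SNT side, Agtr1a and Prkcq lie between, and Plxnc1 lies closest to its control level, with P2rx3 at 315 CPM against 741 CPM.

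Other NP genes gave a scale for these falls. P2rx3 fell by 1.23 on the log2 scale (SE 0.13, edgeR adjusted p = 5.4e-10), from 741 ± 40.1 to 315 ± 12.9 CPM (SD, n = 3 libraries). Mrgprd fell by 9.91 (SE 0.28, edgeR adjusted p = 4.1e-27), from 958 ± 61.8 to 1.13 ± 1.45 CPM. With these, 10 of 12 NP genes tested fell and none was called higher. Among the others were the receptor Gfra2, the sodium channels Scn11a and Scn10a, the glutamate receptor subunit Grik1, the channel Trpc6, Cd55 and the transcription factor Runx1, with log2 changes from -4.54 for Grik1 to -1.82 for Scn10a. Ret (0.69) and Gna14 (-0.93) did not pass the limit on size. The median of the 12 was -2.34, against 0.02 over all genes tested. The list holds genes that the study chose on samples of this series, so its direction is not independent evidence.

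The marker sums of other cells, and of neurons in general, were read in the same pools. The sum of 10 glial markers was 12991 to 15549 CPM in control and 6306 to 7148 CPM in SNT libraries, all 10 of them at a mean of 10 CPM or more on each side. The sum of the markers of C-fibre low-threshold mechanoreceptors (C-LTMR) was 881 to 1054 CPM in control and 104 to 159 CPM in SNT libraries. This list shares Gfra2 with the NP genes, and Gfra2 alone was at 440 ± 26.8 and 19.6 ± 1.57 CPM. The 8 markers of large myelinated neurons summed to 1764 to 1923 and 1644 to 1720 CPM. Among these 8 the neurofilament gene Nefh rose from 297 ± 16.2 to 675 ± 41.8 CPM (1.19, SE 0.13, edgeR adjusted p = 2.9e-09). The rest of that sum was therefore lower. Markers of neurons in general summed to 8319.1 to 9636.5 and 14125.5 to 15971 CPM. The part of these differences in the results was not tested.

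The pathways around the 5 genes were read against the 16% of all tested genes that were called. Of the LPA pathway 8 of 10 genes were tested, and 3 fell and 1 rose. Beside Lpar3 and Lpar5 the receptor Lpar1 fell, from 200 ± 40.1 to 78.5 ± 12.1 CPM (log2 change -1.35, SE 0.19, edgeR adjusted p = 3.4e-07), although its mean in single day-3 neurons was 50.5 CPM in control neurons and 84.7 CPM in SNT-side neurons with high Atf3. The phosphatase Ppap2c, which breaks LPA down, rose from 17 ± 10.6 to 46.1 ± 10.3 CPM (1.49, SE 0.35, edgeR adjusted p = 1.2e-03). The other 4 tested genes, Lpar6, Enpp2, Ppap2a and Ppap2b, were not called, and Lpar2 and Lpar4 lay under the filter. The median log2 change of the 8 was -0.59.

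Of the angiotensin pathway 8 of 10 genes were tested, and Agtr1a alone was called, a share close to that over all genes. Agtr1b, the second mouse type 1 receptor and a near copy of Agtr1a, was at 4.24 ± 2.19 CPM in control and 2.01 ± 1.04 CPM in SNT libraries (edgeR adjusted p = 0.51). The precursor Agt was at 13.2 ± 8.57 and 13.3 ± 2.34 CPM. The median of the 8 log2 changes was -0.35.

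Of the protein kinase C family 9 of 12 genes were tested. Prkcq, Prkca, Prkcd and Prkce fell and Prkcb rose. Prkca fell from 359 ± 48.8 to 68.9 ± 1.35 CPM (log2 change -2.38, SE 0.17, edgeR adjusted p = 6.3e-15), and Prkcd (-1.50) and Prkce (-1.12) fell by less. Prkcb rose from 5.98 ± 2.32 to 36.1 ± 5.75 CPM (2.51, SE 0.42, edgeR adjusted p = 8.9e-06), but in single day-3 neurons its mean was 110 CPM on the control side and 36.4 CPM in SNT-side neurons with high Atf3, the opposite order. The median of the 9 tested was -1.12.

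Of the plexins with Sema7a and its integrin receptor subunit Itgb1, all 11 were tested, and 4 rose and 1 fell. Plxna4 rose most, from 25.6 ± 1.60 to 292 ± 47.3 CPM (log2 change 3.51, SE 0.21, edgeR adjusted p = 1.1e-16). Plxna1 (1.31), Plxna2 (1.30) and Itgb1 (1.49) also rose, and Plxnd1 (-1.30) fell. Sema7a, the ligand of Plxnc1, was at 15.7 ± 4.58 and 10.4 ± 3.4 CPM (log2 change -0.54, edgeR adjusted p = 0.44). In single day-3 neurons Plxna4 was likewise higher in those with high Atf3 (336 against 142 CPM), whereas Plxna2 was lower (62.1 against 158 CPM). The median of the 11 was 0.24.

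Single neurons showed which cells carried these transcripts. No animal is named for the cells, so all cells of 1 side and day count as 1 sample. Their values are given without a test, with the SD over cells. A gene was taken as detected in a cell at 10 CPM or more, and shares of cells have exact Clopper-Pearson 95% intervals. At a count of 0 the limit given is 3 cells of the total, which lies under the upper end of the exact interval. On the control side at day 3, 6 of 18 neurons (33.3%, 13.3% to 59%) had all 5 genes, and no other neuron had more than 3. Beside them 1 neuron had 3 of the genes, 9 had 1, and 2 had none.

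The 6 neurons with all 5 genes were alike. Lpar3 was at 335, 509, 572, 580, 586 and 597 CPM, and Prkcq was at 409, 495, 545, 568, 609 and 630 CPM. Lpar5 ran from 70.6 to 165 CPM, Agtr1a from 24.8 to 78.7 CPM and Plxnc1 from 358 to 695 CPM. P2rx3 was at 1458 to 1882 CPM and Mrgprd at 1287 to 2396 CPM in the same 6, so that the defining NP markers were present where the 5 genes were. Agtr1b was at 0 in all 6, so no read of these neurons was assigned to the second type 1 receptor gene. At day 7 Agtr1b was detected in 9 of 14 control neurons.

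Per length of transcript, Lpar3 was the highest of the genes in these 6 neurons at 215 ± 40.8 CPM per kb (SD, n = 6 cells). Prkcq followed at 151 ± 22.6 CPM per kb, and their ranges overlapped. Lpar5 at 79.8 ± 29.3 CPM per kb and Plxnc1 at 75.0 ± 17.9 CPM per kb did not differ beyond their spread. Agtr1a was the lowest at 21.6 ± 11.2 CPM per kb, with its highest cell at 35.8, under the lowest cell of every other gene.

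The 5 genes did not share the same reach outside this class. Lpar3 in the other 12 control neurons reached at most 7.2 CPM and Lpar5 at most 6.35 CPM. Plxnc1 was detected in 16 of 18 control neurons, at 1.93 to 781 CPM, with a median of 78.6 CPM. Agtr1a was detected in 1 further control neuron, at 72.5 CPM, with Plxnc1 at 781 CPM, the highest of the side, and Lpar3 and Lpar5 at 0. This neuron had P2rx3 at 9.47 CPM and the CGRP gene Calca at 3538 CPM. In 3 SNT-side neurons with low Atf3 the same combination was found, with Agtr1a at 50.8, 64.9 and 98.6 CPM, Plxnc1 at 707, 737 and 962 CPM, Lpar3 at most at 8.71 CPM and Calca at 1901 to 4837 CPM. In the same order P2rx3 in these 3 was at 16.7, 107 and 34.1 CPM. Prkcq was above the detection level too, at 16.6 CPM in the control neuron and at 30.5, 19.1 and 36.9 CPM in the 3. Agtr1a and Plxnc1 were thus also high, and Prkcq detected, in neurons with P2rx3 of no more than 107 CPM. Calca, named after its values were seen, was at 666 to 2330 CPM in the 6 control neurons with the full set, a range that overlaps.

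On the SNT side at day 3 the mean of every gene was lower than on the control side. Lpar3 was at 37.9 ± 132 against 177 ± 262 CPM, Lpar5 at 8.24 ± 26.1 against 39.6 ± 60.5 CPM, and Prkcq at 45.9 ± 128 against 183 ± 266 CPM (SD, n = 41 and 18 cells). Agtr1a was at 8.70 ± 22.3 against 19.9 ± 29.3 CPM and Plxnc1 at 157 ± 211 against 279 ± 288 CPM. The log2 ratios of mean CPM + 1 were -2.20, -2.14, -1.97, -1.11 and -0.83 in that order. Of the 5 genes 4 lay below -1, against 6.07% of the 13663 genes averaging 1 CPM or more, and all 5 passed that filter. Total counts were larger on the SNT side (median 1323932 against 862619). Cells of the sides overlapped for every gene. With medians over cells, 2 of the 5 genes were lower, Agtr1a had a log2 ratio of 0, and the direction turned for Prkcq (0.23) and Plxnc1 (0.10).

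The SNT-side mean joined unlike neurons. Atf3 was at 0.65 to 23 CPM in 11 of the 41 SNT-side neurons and at 951 to 4436 CPM in 30, with none between, and at no more than 75.7 CPM on the control side. A limit of 500 CPM therefore split them without a neuron near it. Against the control neurons none of the genes lay below -1 in the 11 neurons with low Atf3 (log2 ratios -0.39 to 0.60), against 3.86% of 13452 genes. Among these 11, 3 (27.3%, 6.02% to 61.0%) had all 5 genes. Lpar3 in those 3 was at 370, 544 and 570 CPM, Lpar5 at 70.2, 103 and 114 CPM, Prkcq at 374, 471 and 601 CPM, Agtr1a at 12, 50.3 and 60.5 CPM and Plxnc1 at 308, 317 and 485 CPM. For Lpar3 all 3 lay within the range of the 6 control neurons, for Lpar5, Prkcq and Agtr1a 1 lay below it, and for Plxnc1 2 did.

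None of the 30 neurons with high Atf3 had all 5 genes, which allows a share of up to 10.0% at a count of 0. Of the 30, 18 had 1 of the genes, 10 had 2, 1 had 3 and 1 had none, and the mean was 1.37 ± 0.61 genes per neuron, against 2.33 ± 2.03 in the 18 control neurons. The single gene that most of them kept was Plxnc1. Lpar5 was at 0 in 27 of 30 and never above 2.72 CPM. Lpar3 was at 0 in 17 and reached 26.3 CPM, and Agtr1a was at 0 in 25 and reached 11.4 CPM. Their median depth was 1336796 counts, above that of the control neurons.

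Against the 18 control neurons, the 30 neurons with high Atf3 kept 1.10% of the mean Lpar3 level, 0.42% of Lpar5, 3.08% of Agtr1a, 6.35% of Prkcq and 28.4% of Plxnc1. The log2 ratios of mean CPM + 1 were -5.92, -5.12, -3.70, -3.87 and -1.80, and all 5 genes lay below -1, against 11.2% of the 13656 genes past the same filter. This comparison shares its control neurons with the one above. The filter took the mean over both groups. Lpar5 and Agtr1a averaged 0.17 and 0.61 CPM in the 30 and passed it only through the control neurons. Their low ratios in this count are therefore not independent of the filter. With medians in place of means, where 12 of the 18 control neurons lack the set, the ratios lay between -1.75 and 0.23 and the sign of Prkcq turned. Not 1 of the 30 neurons reached, for any of the 5 genes, the lowest of the 6 control neurons that had all of them. Those 6 were chosen by their values of the same genes, and other genes were not counted in this way.

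**Figure D2:**
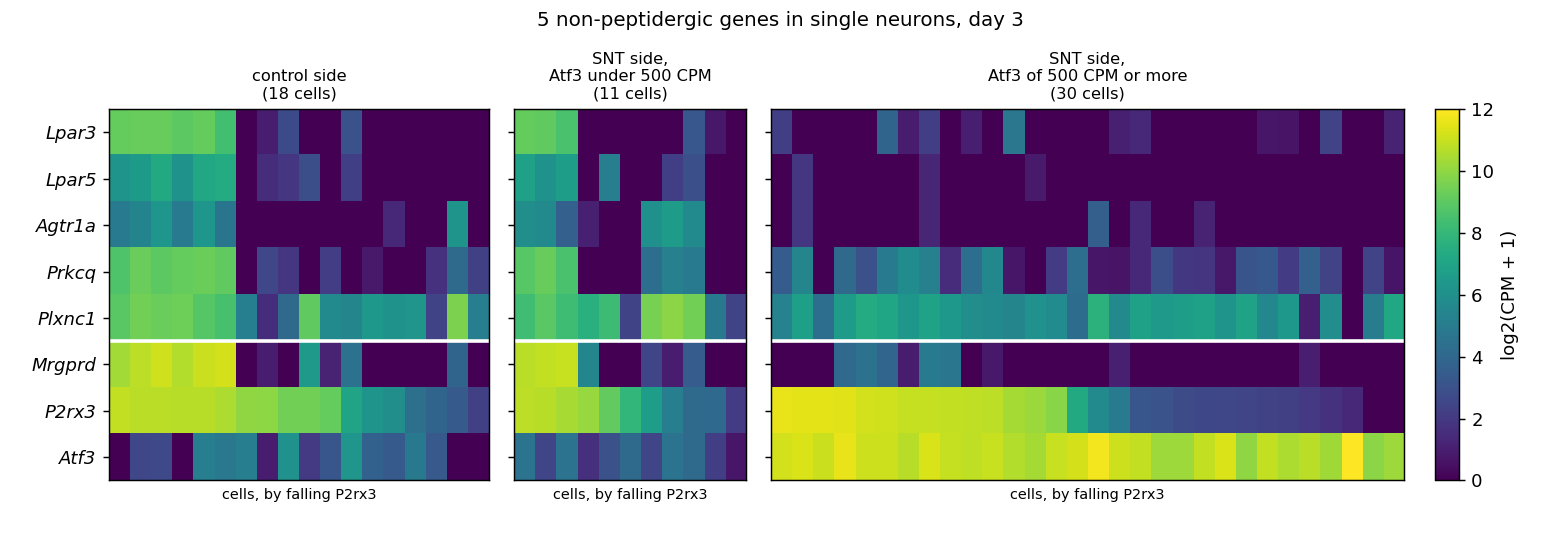
Each column is 1 of the 59 kept day-3 neurons, sorted by P2rx3 within its group, and colour gives log2(CPM + 1) of the 5 genes (above the white line) and of Mrgprd, P2rx3 and Atf3. The 6 control neurons and 3 SNT-side neurons with all 5 genes stand at the left of their blocks, and the 30 neurons with high Atf3 hold no such column although 13 of them have P2rx3 of 1000 CPM or more.

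Since the full set was found in neurons with high P2rx3, neurons rich in P2rx3 were set beside each other. P2rx3 was at 1000 CPM or more in 7 of the 18 control neurons, 4 of the 11 SNT-side neurons with low Atf3 and 13 of the 30 with high Atf3, a limit chosen after the data were seen. In those 13 neurons P2rx3 was at 1156 to 3087 CPM, and 9 of them lay above all 7 control neurons, which reached 1882 CPM. P2rx3 itself fell in the pooled libraries, and whether the gate took like neurons on both sides was not tested. Of the 7 control neurons, 1 with P2rx3 at 1030 CPM had Mrgprd, Lpar3, Lpar5, Agtr1a and Prkcq at 0 and Plxnc1 at 35.8 CPM.

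Within this gate the genes fell apart by how much was left. Lpar3 was at 0 to 26.3 CPM (median 0.02) in the 13 neurons with high Atf3 and at 0 to 597 CPM (median 572) in the 7 control neurons. Lpar5 was at 0 to 2.72 CPM (median 0) against 0 to 165 CPM (median 92.1), and Agtr1a at 0 to 2.72 CPM (median 0) against 0 to 78.7 CPM (median 30.5). Less than 1% of the mean was left of these 3, 0.83% of Lpar3, 0.39% of Lpar5 and 0.79% of Agtr1a. For each of the 5 genes 6 of 7 control neurons lay above every neuron with high Atf3. Those 6 were the neurons with all 5 genes, chosen by these same values, and other genes were not counted in this way.

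Prkcq and Plxnc1 kept more. Prkcq was at 0 to 56.5 CPM (median 17) against 0 to 630 CPM (median 545), a mean level of 4.46%, and it was still detected in 8 of the 13 neurons (61.5%, 31.6% to 86.1%). In the 15 neurons with high Atf3 and P2rx3 under 100 CPM, Prkcq was detected in 1, at a mean of 3.75 ± 3.52 CPM. In the 6 control neurons with P2rx3 under 100 CPM its mean was 3.9 ± 6.38 CPM. Plxnc1 was at 18.9 to 166 CPM (median 80.3) against 35.8 to 695 CPM (median 491), or 17.3% of the mean. Its mean in neurons with high Atf3 was 82.2 ± 41.8 CPM with P2rx3 of 1000 CPM or more and 82.3 ± 55.0 CPM with P2rx3 under 100 CPM. In the 6 control neurons with P2rx3 under 100 CPM the mean of Plxnc1 was 175 CPM, and 1 of them was at 781 CPM.

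The log2 ratios inside the gate were -6.57 for Lpar3, -6.18 for Lpar5, -4.98 for Agtr1a, -4.42 for Prkcq and -2.51 for Plxnc1, all below -1, against 12.8% of 13232 genes. In the 4 SNT-side neurons with low Atf3 inside the gate, the same genes kept 68.8% to 81.7% of the control mean, and none lay below -1, against 5.94% of 12772 genes. Of these 4, 1 with P2rx3 at 1133 CPM had Lpar3, Lpar5 and Prkcq at 0, Agtr1a at 1.05 CPM and Plxnc1 at 195 CPM. In the 3 with all 5 genes the means were 495, 96.0, 40.9, 482 and 370 CPM. The 6 control neurons with all 5 were at 530, 116, 47.4, 543 and 548 CPM, in the order Lpar3, Lpar5, Agtr1a, Prkcq and Plxnc1. With the gate at 100 CPM the ratios for neurons with high Atf3 were -5.97, -5.50, -4.27, -3.74 and -2.11 in the same order of genes, all below -1, against 14% of 13471 genes. At both gates Lpar5 and Agtr1a averaged under 1 CPM in the neurons with high Atf3. They passed the filter only through the control neurons. Mrgprd, which marks the 6 control neurons, was at 8.31 CPM on average in the 13 neurons with high Atf3 and at 1623 CPM in the 7 control neurons.

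**Figure D3:**
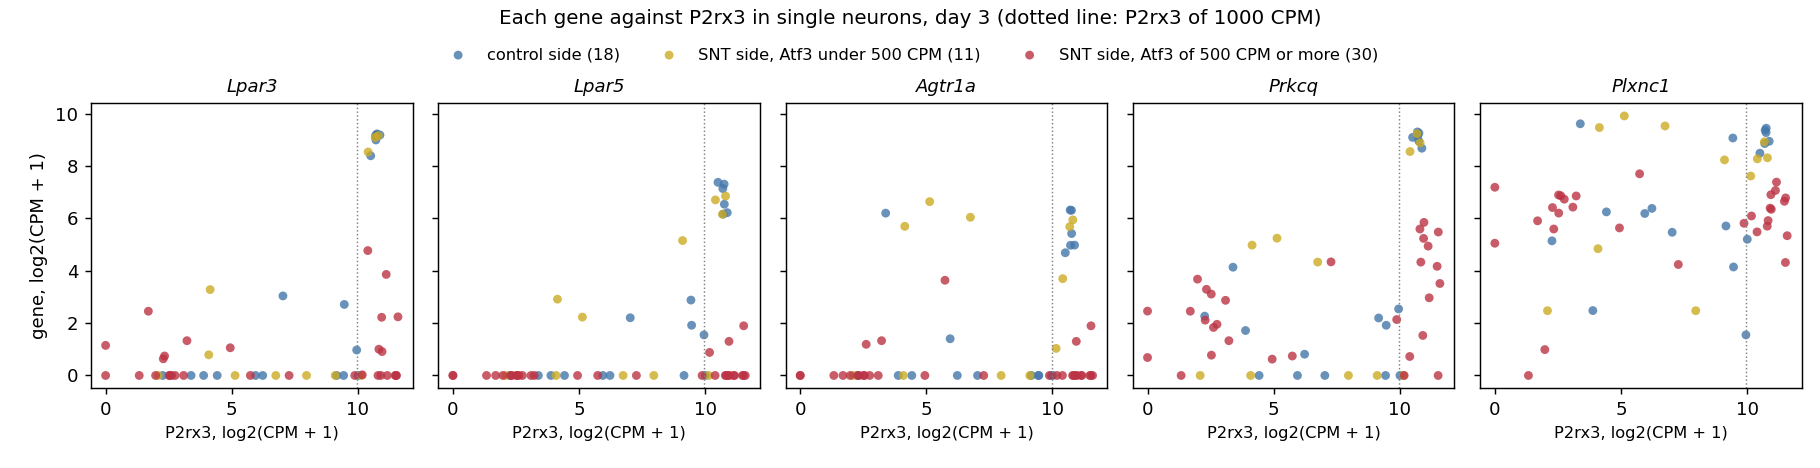
Each point is 1 of the 59 kept day-3 neurons, with P2rx3 on the x axis and the gene on the y axis, both as log2(CPM + 1), and colour gives the side and the Atf3 level. To the right of the dotted line at 1000 CPM of P2rx3, 6 of 7 control neurons stand high for all 5 genes. The 13 neurons with high Atf3 lie below those 6, at no more than 26.3 CPM for Lpar3 and 2.72 CPM for Lpar5 and Agtr1a. Their highest values are 56.5 CPM for Prkcq and 166 CPM for Plxnc1.

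The 11 day-3 neurons that the authors removed as outliers, 4 of the control side and 7 of the SNT side, did not hold the full set either. None had more than 2 of the genes, and their totals were lower, at 223967 to 666521 counts. The highest Lpar3 value among them was 96.0 CPM, in an SNT-side neuron, and Lpar5 reached 4.46 CPM.

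At day 7 just 1 of the 14 control neurons, from a male mouse, carried most of the set. It had Lpar5 at 35.8 CPM, Agtr1a at 23.9 CPM, Prkcq at 365 CPM and Plxnc1 at 403 CPM, with Mrgprd at 1588 CPM and P2rx3 at 947 CPM, but Lpar3 at 0. Its Agtr1b value of 86.2 CPM was above that of Agtr1a. The other 13 control neurons had Lpar5 and Agtr1a at 0, Prkcq at no more than 3.83 CPM and Lpar3 at no more than 9.82 CPM. The picked neurons differed from those of day 3, in that 8 markers of large myelinated neurons summed to a median of 4567 CPM in control neurons at day 7, against 318 CPM at day 3.

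On the SNT side at day 7, Lpar5 and Agtr1a were at 0 in all 33 neurons, which allows a share of neurons at 10 CPM or more of up to 9.09% for each. Lpar3 was at 0 in 31 and reached 1.96 CPM, and Prkcq was at 0 in 29 and reached 10.4 CPM. The mean level was 0.10 ± 0.42 against 1.66 ± 2.97 CPM for Lpar3 and 0.45 ± 1.84 against 26.5 ± 97.4 CPM for Prkcq (SD, n = 33 and 14 cells). A mean of at least 1 CPM over both sides was reached by 2 of the 5 genes, Prkcq and Plxnc1, and 3.49% of the 13320 genes past that filter had a log2 ratio below -1. The ratio of Prkcq was -4.25, and without the highest cell of each side it was -0.42, so the day-7 difference rested on 1 control neuron.

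Plxnc1 was the one gene of the 5 with many positive neurons at day 7. It was at 0 to 403 CPM (median 21.5) in the 14 control neurons and at 0 to 238 CPM (median 35.7) in the 33 SNT-side neurons, and the means of 58.1 ± 109 and 62.6 ± 72.2 CPM differed by less than the spread over cells (log2 ratio 0.11). Within the SNT side it was at 9.09 to 238 CPM (median 97.4) in the 12 neurons with Atf3 of 500 CPM or more and at 0 to 227 CPM (median 26.1) in the 21 others, with a log2 ratio of 1.91, and 7.45% of 13315 genes had a ratio above 1. At day 3 the same ratio was -2.20. The neurofilament gene Nefh, high in myelinated neurons, was at 1747 ± 750 CPM in the 12 neurons and at 4060 ± 2188 CPM in the 21 others. Calca was at 85.0 ± 288 CPM in the 12 and at 3658 ± 4518 CPM in the 21, so the groups held unlike neurons, and the part of this in the Plxnc1 ratio was not tested.

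By sex at day 7, the log2 ratio of Plxnc1 was 0.996 in female mice (16 SNT-side and 7 control neurons) and -0.87 in male mice (17 and 7), and that of Prkcq was 0.79 and -5.50. Lpar5 and Agtr1a were at 0 in every neuron of female mice. The single control neuron with most of the set was among those of male mice.

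**Figure D4:**
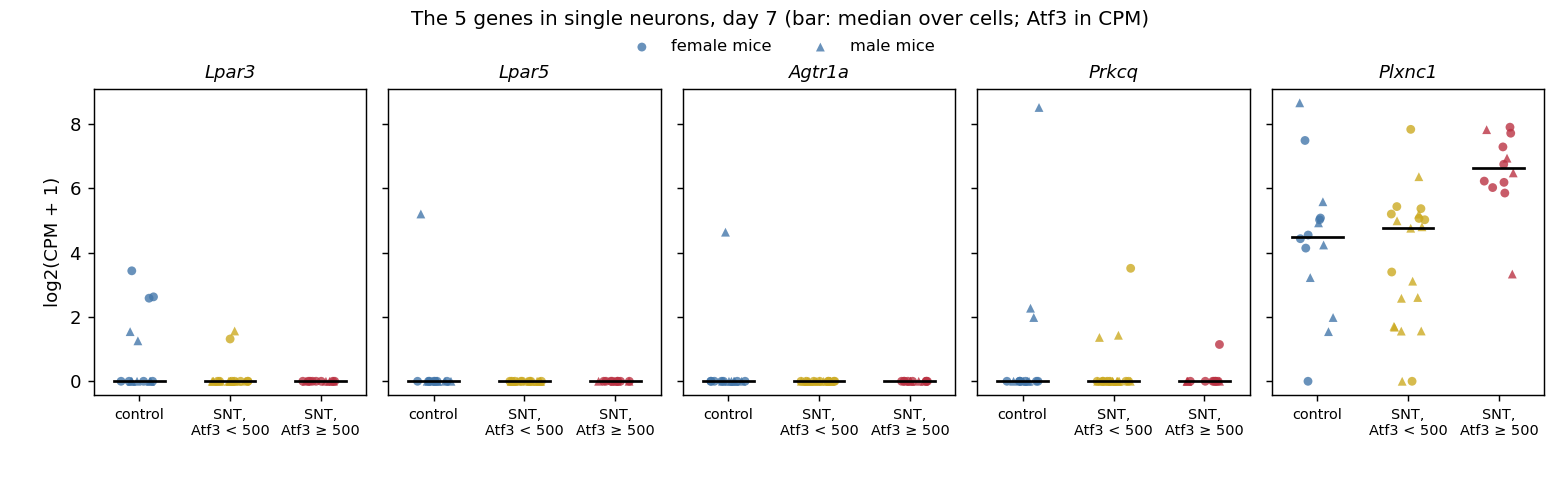
Each point is 1 of the 47 day-7 neurons as log2(CPM + 1), circles for female and triangles for male mice, by side and Atf3 level, and bars give the median over cells. Lpar5 and Agtr1a are above 0 in 1 control neuron only, while Plxnc1 is spread over all groups with medians of 21.5, 26.1 and 97.4 CPM.

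The genes whose pattern over the 59 kept day-3 neurons was most like that of each member were found by Spearman correlation of log2(CPM + 1). These are descriptions over cells of 2 samples that also share depth and neuron class. For Lpar3 the closest were Lpar5 (0.63), Arpc1b (0.57) and Cdh1 (0.57), and for Lpar5 they were Mrgprb5 (0.71), Cadm1 (0.69) and Gnaq (0.69). For Agtr1a they were Slc16a12 (0.77), Plxnc1 (0.75) and Mrgprb5 (0.74). For Prkcq they were Serping1 (0.73), Ggta1 (0.69) and Pde10a (0.68), and for Plxnc1 they were Nnat (0.79), Cd24a (0.77) and Cds2 (0.77). Lpar3 and Plxnc1 were the least alike of the members, at 0.31. In the 18 control neurons alone Lpar3 and Lpar5 reached 0.89. At day 7 Lpar3, Lpar5, Agtr1a and Prkcq were detected in at most 2 of the 47 neurons. There the values for Plxnc1 were 0.54 with Nnat, 0.32 with Cd24a and 0.56 with Cds2.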

How the data were processed

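Libraries were made by the Smart-seq2 protocol, which reads whole transcripts without molecular identifiers or strand. Per the labels and the study's methods, the authors removed ribosomal reads and mapped the rest with bowtie2 and RSEM to RefSeq exons on mm9. The deposited tables are named TPM but hold expected counts (estimated counts per gene), since columns sum to 223967 to 2003817. Counts were rounded for edgeR 4.0.16 (R 4.3.3, TMM, genes averaging 1 CPM or more), which compared the pooled libraries, with DESeq2 1.42.0, limma 3.58.1, other scalings and filters as alternatives. Kept cells held 261351 to 1849130 counts. The labels' source field calls all 6 pooled libraries intact, and sides were read from column names. For cells, CPM is the value over the column sum, and log2 ratios use mean CPM + 1. Intervals and limits at a count of 0 (3 cells of the total) cover counting error only. In simulated pooled counts of 13194 genes, a sample of the genes averaging 10 CPM or more was changed. Of these, 98% of genes changed by 2 on the log2 scale and 100% of those changed by 3 were called. Lower genes were not tried, and the simulated spread was that between libraries of 1 lysate. The genes, lists and tests were chosen with earlier results of these data known. Named genes were the 5 members, the list genes and the 3 genes most like each member. A gene of the lists is not reported here by name.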

Additional observations from a re-analysis of the deposited data

Results flagged for a closer look

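Plxnc1 had a log2 ratio of 0.11 between SNT-side and control neurons at day 7, opposite in sign to the -0.83 at day 3. Within day 7 it was 0.996 in female and -0.87 in male mice. Prkcq at day 7 had a log2 ratio of 0.79 in female mice, where its control neurons were all at 0, and -5.50 in male mice, where 1 control neuron at 365 CPM carried the mean. None of these differences was tested, since no animal is named for the cells.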

How the results depend on the processing

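Over 317 alternatives, 278 values stayed within 1 SD over cells, the test's side of its threshold or 1.5 times a count, and 5 changed sign. The SD over cells is wide at day 3. There the median ratio of the 5 genes moved from -1.97 to 0 and still lay within its SD of 2.51. The count of 278 therefore says little about how stable the single-cell ratios are. In the pooled libraries 4 of 5 genes were called under all 16 alternatives, while the number of genes called ran from 1649 to 2244, and from 1879 to 2150 when 1 library was left out. Same-numbered libraries did not deviate together (correlations 0.07, -0.01 and -0.01), and with the replicate number as a block 2009 genes were called. Plxnc1 ran from -0.997 to -0.66 on the log2 scale, and its adjusted p was 0.076 with limma on log2(CPM + 1).

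Single-cell ratios depended on the average. With medians over cells, the number of genes with a ratio under 0 was 2 at day 3, 0 at day 7 and 3 in neurons with high Atf3. The median ratio of the 5 genes was then 0 at day 3, 0 at day 7 and -0.0399 in neurons with high Atf3, in place of -1.97, -1.44 and -3.87. Prkcq changed sign, to 0.23 at day 3 and 0.23 in neurons with high Atf3, as did Plxnc1 at day 3, to 0.10. In male mice Plxnc1 at day 7 was -0.87. At day 7 the median ratio was -4.17 with a pseudocount of 0.1 and -0.23 with 10. Without the highest cell of each side it was 0, with 2 genes under 0, and in female mice it was 0, with 1 gene under 0 and Prkcq at 0.79. Of the 15 pairs of a member and a closest gene, in which Mrgprb5 stands for both Lpar5 and Agtr1a, 6 were among the 20 closest in control day-3 neurons alone. Beyond the 1 day-7 control neuron named above, the causes were not tested. Depth limits what a value of 0 means: kept cells held at least 261351 counts, and the gate at 1000 CPM of P2rx3 was chosen after seeing the data.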
